A study of Homo sapiens with 6 samples.

Results

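The genes described here carry iron into human cells, store it, release it, export it and sense it, and BDH2 is added to them. They are the 10 rows of the gene table whose symbols are BDH2, TFRC, SLC11A2, STEAP3, FTH1, FTL, NCOA4, SLC40A1, ACO1 and IREB2, out of 58735 genes listed. BDH2 was chosen from the measured difference between the groups, in which it is among the largest rises, and the other 9 genes were chosen by function with the results of the same contrast known. Their values in this contrast are therefore given as a description, with standard errors but without p-values. The data are RNA-seq libraries of HCT116, an epithelial colorectal carcinoma cell line, labelled wild type in the control group. The control group (CTR, 3 libraries) received a control transfection and the other group (miR-8485, 3 libraries) received 50 nM miR-8485 mimics, and the methods give 48 h after transfection as the time of collection unless another time is named. A mimic is a synthetic RNA that acts as the mature microRNA. The labels describe the replicates of each group as independent biological replicates, and all 6 libraries come from this single cell line.

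Cells take up iron bound to transferrin through the transferrin receptor TFRC, reduce it in the endosome with STEAP3 and pass it to the cytosol through the transporter SLC11A2. Iron that is not used is stored in ferritin, a shell of FTH1 and FTL subunits, from which NCOA4 releases it by carrying ferritin to the lysosome, and SLC40A1, ferroportin, is the exporter. When iron is scarce, the iron regulatory proteins ACO1 and IREB2 bind hairpins in mRNAs called iron-responsive elements. A hairpin in the 5′ untranslated region (UTR) then blocks translation of ferritin and ferroportin, and hairpins in the 3′ UTR of TFRC protect that mRNA from decay. BDH2 is a cytosolic hydroxybutyrate dehydrogenase that has been described as a source of a mammalian siderophore, a small molecule that binds iron.

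The hairpins are where the iron regulatory proteins bind, so the elements that a search by sequence found are given first. The UTRs of all transcripts of the 10 genes in GENCODE release 44 on GRCh38 were searched on the transcript strand for a C, a stem of 5 bases, the loop CAGTGN with A, C or T at the last place, and 5 bases that pair with the stem, with G-T pairs allowed. In the lines that follow, the loop is in capitals, the sequence is written 5′ to 3′ as DNA and all but the FTL element lie on the minus strand.
FTH1, 5′ UTR, chr11:61967574-61967601: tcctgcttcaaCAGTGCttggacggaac
FTL, 5′ UTR, chr19:48965336-48965363: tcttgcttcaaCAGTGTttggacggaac
SLC40A1, 5′ UTR, chr2:189580661-189580688: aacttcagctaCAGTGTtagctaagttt
TFRC, 3′ UTR, chr3:196050979-196051006: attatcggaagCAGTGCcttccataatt
TFRC, 3′ UTR, chr3:196050575-196050602: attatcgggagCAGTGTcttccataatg
TFRC, 3′ UTR, chr3:196050510-196050537: tgtatcggagaCAGTGAtctccatatgt
TFRC, 3′ UTR, chr3:196050463-196050490: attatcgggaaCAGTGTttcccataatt
In canonical transcripts, such an element was found in the 5′ UTR of 12 of 19511 listed genes, or 0.06%, and in the 3′ UTR of 98 of 19420 genes, or 0.5%. The 4 matches in TFRC lie in the 3′ UTR with their loops starting at bases 947, 1351, 1416 and 1463 after the stop codon. A TFRC element with other loop letters would be missed. The other 6 genes gave no match to these letters. SLC11A2 is among them, although an element is known in the 3′ UTR of some of its isoforms, so a missing match does not mean that an mRNA lacks an element.

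The seed of the mimic, bases 2 to 8, pairs with TGTGTGT, and 1 of the 10 genes holds it in its canonical 3′ UTR. That gene is SLC11A2, with 1 copy, shown in capitals with 6 bases on either side.
SLC11A2, 3′ UTR, minus strand, chr12:50986378-50986396: atattaTGTGTGTacttca
Among the tested genes with an annotated canonical 3′ UTR, 3086 of 10675, or 28.9%, hold at least 1 copy on the transcript strand. The 3′ UTR of BDH2, of 2110 bases, the 2 ferritin 3′ UTRs, of 442 bases in FTH1 and 144 bases in FTL, and those of the remaining genes hold none. Which 3′ UTRs are used in HCT116 cells was not measured.

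**Figure D1:**
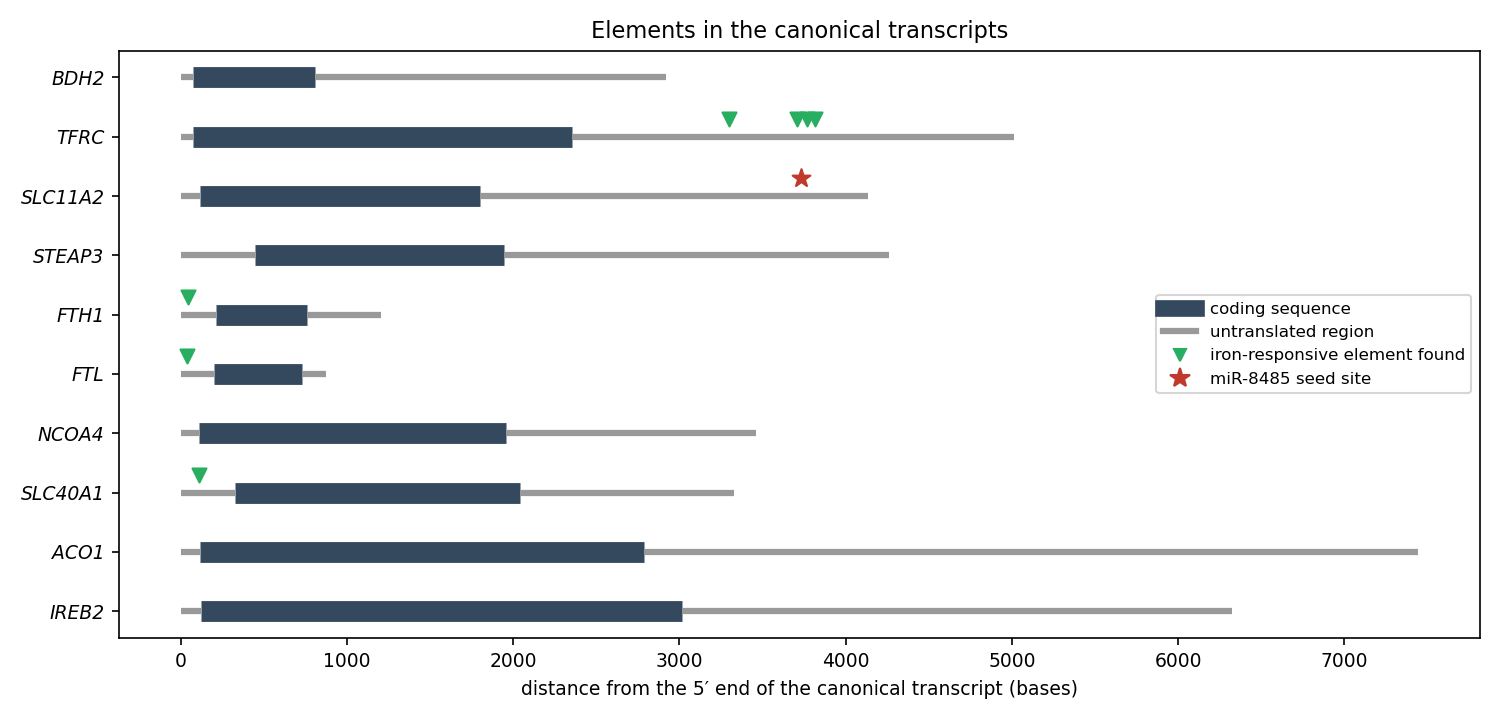
Canonical transcripts of the 10 genes drawn to scale in bases from the 5′ end, with the coding sequence as a thick bar, the untranslated regions as thin bars, the iron-responsive elements as green triangles and the miR-8485 seed site as a red star. Elements were found in the 5′ UTR of FTH1, FTL and SLC40A1, and 4 were found in the 3′ UTR of TFRC. The only seed site is that of SLC11A2.

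All values are FPKM, that is fragments scaled to gene length in kilobases and to library size. Means are given ± SD with n = 3 libraries throughout, and a difference between the groups is a difference of log2(FPKM + 0.1), miR-8485 minus CTR. The 6 libraries held 17473874 to 18480047 fragments on listed genes. Compared in pairs over their fragments, libraries gave a chi-square per gene, near 1 for counting error alone, of 2.91 to 12.8 within groups and 77.2 to 88.7 between them. Within groups it was highest for CTR replicate 1 against the other controls (10.2 and 12.8). The epithelial markers EPCAM, CDH1, KRT8, KRT18 and KRT19 were all expressed, with a summed level of 2598 to 2822 FPKM in CTR and 1724 to 1808 FPKM in miR-8485, and the 3 keratins were lower in every miR-8485 library. Of 8 markers of other cell types, COL1A1 alone exceeded 1 FPKM, DCN was at 0 in every library, and the summed level was 4.34 to 4.51 FPKM in CTR and 6.65 to 6.94 FPKM in miR-8485. The part of these marker levels in the results was not tested. Fewer cells of a type and less RNA per cell cannot be told apart in such bulk libraries.

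The 2 ferritin genes and BDH2 were higher in every miR-8485 library than in any CTR library, and TFRC, STEAP3, NCOA4 and IREB2 were lower in every one. In limma fitted over all 12349 genes whose mean FPKM was 1 or more, an adjusted p under 0.05 was reached by 3 of the 9 genes past this filter in the upward direction, where 29.1% of all tested genes were called up, and by 4 in the downward direction, where 30.5% were called down. In either direction 7 of these 9 genes were called, against 59.6% of all tested genes. The libraries of the groups did not overlap for 66.5% of tested genes. Nothing is read from these counts, since the genes were put together with this contrast known. SLC11A2, ACO1 and SLC40A1 were not called. SLC40A1 lies below the filter and is taken from the fit of the 31768 genes above 0.

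**Figure D2:**
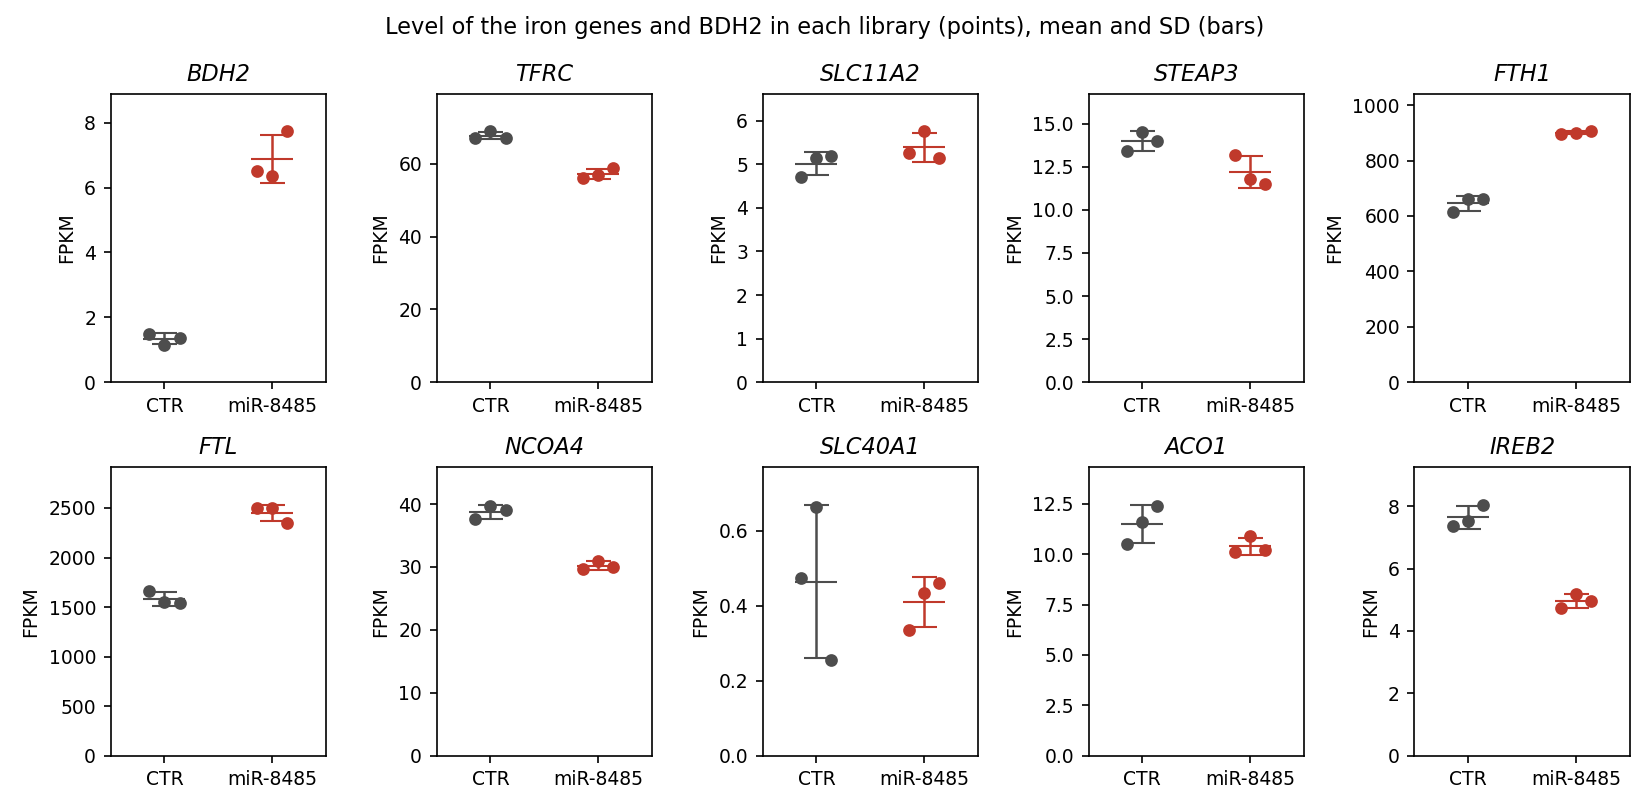
FPKM of the 10 genes in each of the 3 CTR and 3 miR-8485 libraries (points), with the mean and SD of each group (bars) on linear axes that start at 0. BDH2, FTH1 and FTL are higher in all miR-8485 libraries, TFRC, STEAP3, NCOA4 and IREB2 are lower in all of them, and SLC11A2, SLC40A1 and ACO1 overlap between the groups.

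BDH2 differed most. Its gene spans 103079435 to 103099883 of chromosome 4 (hg38, minus strand), and it was at 1.49, 1.16 and 1.37 FPKM in CTR replicates 1 to 3 and at 6.52, 6.37 and 7.74 FPKM in miR-8485 replicates 1 to 3. The means were 1.34 ± 0.168 FPKM and 6.88 ± 0.753 FPKM, a ratio of 5.13. The groups were far apart relative to their spread. BDH2 was chosen from this difference, so its separation and rank are a description only. The log2 difference was 2.28 with a standard error of 0.12, and it ranked 27 from the top among the 12349 tested genes, of which 4.03% had a difference of at least 1. These levels rest on 71 to 91 fragments per CTR library and 390 to 499 per miR-8485 library.

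SLC9B2, a sodium/proton antiporter gene next to BDH2 on the same strand, shares 397 of the 5213 exon bases of BDH2 (7.62%) in GENCODE. It was at 2.65 ± 0.343 FPKM in CTR and 3.03 ± 0.102 FPKM in miR-8485, with overlapping libraries and a log2 difference of 0.19 (standard error 0.10, adjusted p = 0.143 in limma). BDH1, the mitochondrial hydroxybutyrate dehydrogenase, was at 2.29 ± 0.0883 FPKM in CTR and 2.99 ± 0.152 FPKM in miR-8485, a rise of 0.37 on the log2 scale (standard error 0.08, adjusted p = 0.00617 in limma). In FPKM, BDH2 was thus below BDH1 in CTR (ratio of BDH2 to BDH1 0.498 to 0.632) and above it in miR-8485 (2.04 to 2.74). Of the 10720 other protein-coding genes past the filter, the 3 whose levels over the 6 libraries, each relative to the CTR mean, lay nearest to those of BDH2 were PRR15L, TSPAN8 and SLC46A3. Their root mean square differences from BDH2 were 0.131, 0.151 and 0.152 on the log2 scale.

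The ferritin genes were the most abundant of the 10. FTL, the light subunit, on the plus strand of chromosome 19 (48965301 to 48966878), was at 1666, 1548 and 1543 FPKM in the CTR libraries and at 2495, 2501 and 2353 FPKM in the miR-8485 libraries. The lowest miR-8485 library was well above the highest CTR library. The means were 1585 ± 69.9 FPKM and 2449.8 ± 83.7 FPKM, with a log2 difference of 0.63 (standard error 0.05). FTH1, the heavy subunit with the ferroxidase site, on the minus strand of chromosome 11 (61959718 to 61967660), was at 615, 661 and 661 FPKM in CTR and at 896, 899 and 906 FPKM in miR-8485. Its 3 miR-8485 libraries were nearly equal, and its log2 difference was 0.48 (standard error 0.05).

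Together the 2 ferritin mRNAs made up 0.65% to 0.706% of the summed FPKM in the CTR libraries and 0.918% to 0.944% in the miR-8485 libraries. The ratio of FTL to FTH1 was 2.71, 2.34 and 2.33 in CTR and 2.78, 2.78 and 2.6 in miR-8485. This ratio of light to heavy subunit rests on listed exon lengths of 878 bases for FTL and 2030 for FTH1, whose canonical transcript has 1203. It overlapped between the groups, with CTR replicate 1 above miR-8485 replicate 3. The size of the ferritin difference depended on gene length. With the trend against gene length removed, it was 0.39 for FTL, an mRNA of 871 bases, and 0.35 for FTH1.

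Ferritin has many processed pseudogenes that could take or give fragments. Of 25 listed FTH1 pseudogenes, 5 reached a mean of 1 FPKM over the 6 libraries (FTH1P2, FTH1P7, FTH1P8, FTH1P23 and FTH1P11), and of 16 FTL pseudogenes, 2 did (FTLP3 and FTLP12). All listed FTH1 pseudogenes held 1.04% to 1.72% of the fragments of FTH1 and its pseudogenes per library, and the FTL pseudogenes 0.0568% to 0.15% of theirs. FTLP3 was at 1.05 ± 0.107 FPKM in CTR and 2.58 ± 0.272 FPKM in miR-8485. BEST1, on the opposite strand, shares 63.22% of the exon bases of FTH1 in GENCODE. The counting is not stated to use strand. BEST1 had at most 10 fragments in any library, against at least 22513 for FTH1. The part of the shared bases in the FTH1 values was not tested.

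NCOA4, the cargo receptor that takes ferritin to the lysosome, on the minus strand of chromosome 10 (46005088 to 46030714), lay on the other side of 0 from ferritin. It was at 37.6, 39.7 and 39.0 FPKM in CTR and at 29.7, 31.0 and 30.0 FPKM in miR-8485. The groups did not overlap, and the log2 difference was -0.36 (standard error 0.04).

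The uptake genes were lower or overlapped. TFRC, on the minus strand of chromosome 3 (196027183 to 196082189), was at 67.2, 69.0 and 67.0 FPKM in CTR and at 56.1, 57.0 and 58.9 FPKM in miR-8485. Each group spanned a narrow range, and the difference between them was modest, with a ratio of the means of 0.846 and a log2 difference of -0.24 (standard error 0.04). The lncRNA gene ENSG00000286168 on the opposite strand shares 1.1% of the exon bases of TFRC in GENCODE. The log2 difference of TFRC was -0.15 with the trend against gene length or against GC content removed and -0.36 after rescaling to TPM. The ratio of TFRC to the sum of the 2 ferritin mRNAs was 0.0295 to 0.0312 in CTR and 0.0165 to 0.0181 in miR-8485, so this ratio did not overlap between the groups.

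STEAP3, the endosomal ferrireductase, on the plus strand of chromosome 2 (119223831 to 119265652), was at 13.4, 14.5 and 14 FPKM in CTR and at 13.2, 11.8 and 11.5 FPKM in miR-8485. The lowest CTR library and miR-8485 replicate 1 were close to each other. The log2 difference of -0.20 (standard error 0.07) lost its call without CTR replicate 2 (-0.17), CTR replicate 3 (-0.20), miR-8485 replicate 2 (-0.18) or miR-8485 replicate 3 (-0.16), and became -0.32 after rescaling to TPM. STEAP3-AS1, an antisense gene that shares 10.96% of the exon bases of STEAP3, had at most 5 fragments in any library.

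SLC11A2, the endosomal iron transporter and the only one of these genes with a seed site, lies on the minus strand of chromosome 12 (50979401 to 51028566). It was at 4.71, 5.15 and 5.18 FPKM in CTR and at 5.26, 5.76 and 5.14 FPKM in miR-8485. The groups overlapped. The log2 difference was 0.10 with a 95% interval of -0.06 to 0.27, it was -0.01 after rescaling to TPM, and with the trend against gene length removed it was called at 0.22.

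SLC40A1, the exporter, on the minus strand of chromosome 2 (189560579 to 189583758), was barely detected. It had 37, 52 and 20 fragments in CTR and 26, 34 and 38 in miR-8485, or 0.464 ± 0.205 FPKM and 0.41 ± 0.0667 FPKM. The controls spanned the whole range of the miR-8485 libraries. The log2 difference was -0.09 with a 95% interval of -0.96 to 0.79, and it was 0.17 without CTR replicate 2 and 0.02 without miR-8485 replicate 1.

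The mRNAs of the iron regulatory proteins differed from each other. The levels of these proteins and their binding to RNA were not measured in these libraries. IREB2, which binds iron-responsive elements and is degraded when iron is plentiful, lies on the plus strand of chromosome 15 (78437431 to 78501456). It was at 7.35, 7.52 and 8.05 FPKM in CTR and at 4.74, 5.18 and 4.95 FPKM in miR-8485, so that every miR-8485 library was below every control. The log2 difference was -0.61 (standard error 0.06), the lowest of the 10 genes. ACO1, which is a cytosolic aconitase when it holds an iron-sulfur cluster and binds RNA without it, lies on the plus strand of chromosome 9 (32384603 to 32454769).

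ACO1 was at 10.5, 11.6 and 12.4 FPKM in CTR and at 10.1, 10.9 and 10.2 FPKM in miR-8485. Its libraries overlapped, and the log2 difference was -0.14 with a 95% interval of -0.30 to 0.03. It was called at -0.20 without CTR replicate 1 and at -0.26 after rescaling to TPM. The ratio of IREB2 to ACO1 was 0.647 to 0.699 in CTR and 0.468 to 0.483 in miR-8485. FBXL5, the adaptor of the ubiquitin ligase that degrades IREB2, was at 5.78 ± 0.224 FPKM in CTR and 5.85 ± 0.321 FPKM in miR-8485, a log2 difference of 0.02 (standard error 0.06, adjusted p = 0.832 in limma).

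**Figure D3:**
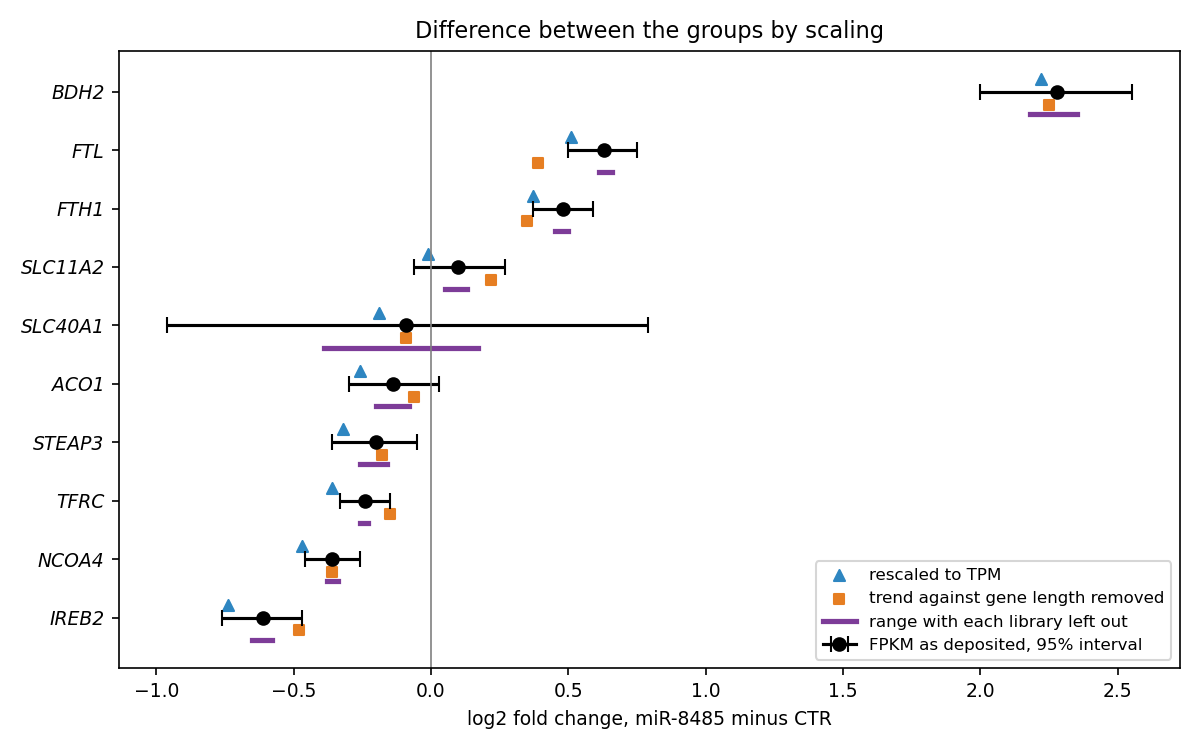
Log2 fold change (miR-8485 minus CTR) of the 10 genes with its 95% interval (black), after rescaling to TPM (blue), with the trend against gene length removed (orange) and as the range with each library left out in turn (purple). BDH2 stands at 2.28, FTL and FTH1 lie above 0 and IREB2, NCOA4, TFRC and STEAP3 below 0 under each of these settings, and the 95% intervals of SLC11A2, SLC40A1 and ACO1 cross 0.

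By FPKM, the order of the levels was FTL, FTH1, TFRC, NCOA4, STEAP3, ACO1, IREB2, SLC11A2, BDH2 and SLC40A1 in CTR. This order rests on the listed exon length of each gene, which exceeds its canonical transcript by unequal amounts. The lengths were 10806 against 6324 bases for IREB2, 10145 against 4132 for SLC11A2 and 7555 against 7443 for ACO1. Whether the order and the ratios between genes hold with other lengths was not tested. No neighbours in this order overlapped in their ranges over the 3 libraries. In miR-8485 the first 6 places were the same, followed by BDH2, SLC11A2, IREB2 and SLC40A1, and the ranges of SLC11A2 and IREB2 overlapped. BDH2 thus stood in place 9 in CTR and in place 7 in miR-8485, while IREB2 stood in places 7 and 9. The FPKM of FTH1 was 9.53 times that of TFRC in CTR and 15.7 times in miR-8485.

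The other genes of iron metabolism moved in both directions. Of a list of 114 genes in 8 groups, 98 passed the filter, and in limma 26 of these rose (26.5%, against 29.1% of all tested genes) and 32 fell (32.7%, against 30.5%). The median log2 difference was -0.00039, against -0.0041 over all tested genes. After rescaling to TPM, which moved the median of all tested genes to -0.12, 17 rose and 40 fell. The shares of the whole list thus lay near those of all genes. The groups of the list were chosen with results of these data known, and no group was tested against other genes or other groups.

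Among 16 tested genes of iron import and uptake, 9 fell and 1 rose, with a median log2 difference of -0.15. These are 56.2% and 6.25% of the group, where 30.5% of all tested genes were called down and 29.1% up. Some of the 9 falls were small and depended on the processing. RAB11A was at -0.15, and at -0.01 with the trend against GC content removed. VPS35 was at -0.19, and at -0.07 with the trend against gene length removed. After rescaling to TPM they were at -0.26 and -0.30. LCN2, a secreted protein that binds siderophores and so takes iron from bacteria, fell most, from 4.73 ± 0.921 FPKM to 1.49 ± 0.169 FPKM, by 1.59 on the log2 scale (standard error 0.16, adjusted p = 0.00012 in limma). SLC22A17, described as a receptor of LCN2, fell by 0.73 (adjusted p = 0.00244) and EXOC6, a subunit of the exocyst complex, by 0.56 (adjusted p = 0.00166). HFE, a partner of the transferrin receptor, rose from 2.09 ± 0.202 FPKM to 2.94 ± 0.0753 FPKM, by 0.48 (adjusted p = 0.00383).

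Of 8 tested genes listed with iron storage, chaperones and export, 4 fell and 0 rose in limma. Over all tested genes, 30.5% were called down and 29.1% up. The 8 genes were PCBP1, PCBP2, PCBP4, FBXL5, HERC2, USP5, APP and PRNP. FTH1, FTL and SLC40A1 are not in this group, and FTMT, HEPH, HEPHL1, CP, HAMP and PCBP3 lay below the filter. The group thus does not describe ferritin or ferroportin. APP, the amyloid precursor protein, fell from 74.3 ± 1.34 FPKM to 26.3 ± 1.63 FPKM, by 1.5 on the log2 scale (standard error 0.05, adjusted p = 2.2e-06 in limma). USP5, a deubiquitinase, fell by 0.50 (adjusted p = 7.1e-05). PCBP1, a chaperone that delivers iron to ferritin, fell by 0.22 (adjusted p = 0.00744), in the direction opposite to the ferritin genes it serves.

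The heme genes went both ways. Of 19 tested heme genes, 6 rose and 5 fell, with a median log2 difference of 0.12. The shares were 31.6% and 26.3%, against 29.1% called up and 30.5% called down of all tested genes. ALAS1, the first and rate-limiting enzyme, fell from 74.5 ± 5.13 FPKM to 40.5 ± 2.90 FPKM, by 0.88 on the log2 scale (adjusted p = 4.4e-05), and CPOX, a later mitochondrial enzyme, fell from 278 ± 7.43 FPKM to 116 ± 2.69 FPKM, by 1.26 (adjusted p = 2.2e-06). FLVCR1, a heme and choline transporter, fell by 1.07 (adjusted p = 0.00032). UROS, which closes the porphyrin ring, rose from 8.38 ± 0.425 FPKM to 17.5 ± 0.394 FPKM, by 1.05 (adjusted p = 7.1e-06). PPOX, the enzyme after CPOX, rose by 0.58 (adjusted p = 0.00584) and HMOX1, which breaks heme down and frees its iron, by 0.51 (adjusted p = 5.7e-05).

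Of 24 tested genes listed with mitochondrial iron and iron-sulfur cluster assembly, not all of which are importers or assembly factors, 8 rose and 4 fell. These are 33.3% and 16.7%, where 29.1% of all tested genes were called up and 30.5% down. NFS1, the cysteine desulfurase that supplies sulfur, rose from 3.41 ± 0.365 FPKM to 6.91 ± 0.0821 FPKM, by 1.0 on the log2 scale (adjusted p = 4.8e-05 in limma), and LYRM4, its partner, rose by 0.55 (adjusted p = 0.00068), as did BOLA3 (adjusted p = 0.0015). CISD2, an iron-sulfur protein, fell by 1.14 (adjusted p = 6.8e-06), SLC25A37, the iron importer mitoferrin, by 0.92 (adjusted p = 3.6e-05), and ABCB10, a transporter of the inner membrane, by 0.34 (adjusted p = 0.00212). Of 11 tested genes listed with cytosolic cluster assembly, 4 rose and 2 fell, or 36.4% and 18.2%, against the same 29.1% and 30.5%. CIAO1 rose by 0.45 (adjusted p = 9.7e-05) and NUBP2 by 0.32 (adjusted p = 0.00622, but 0.0534 after rescaling to TPM), whereas GLRX3 fell by 0.44 (adjusted p = 0.00079) and NUBP1 by 0.33 (adjusted p = 0.00361).

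**Figure D4:**
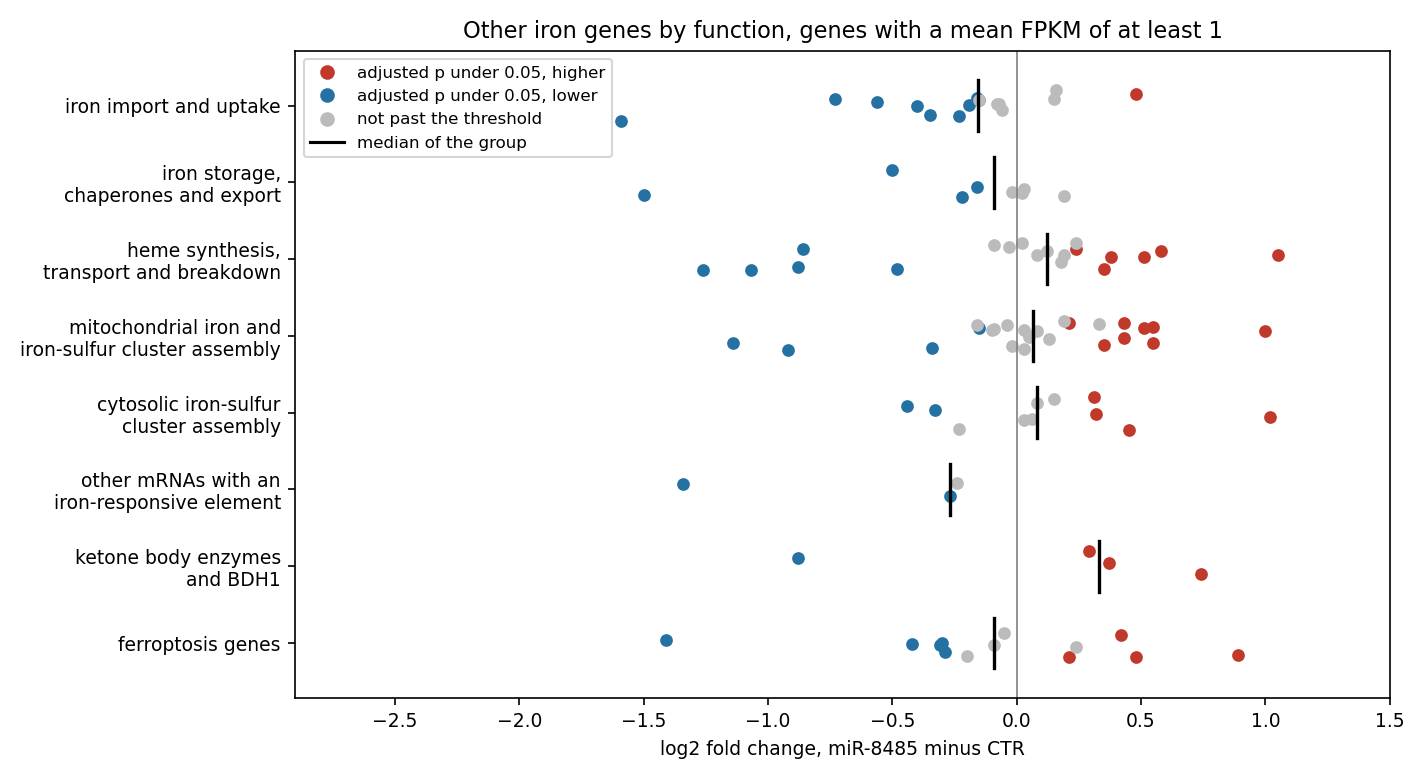
Log2 fold change (miR-8485 minus CTR) of 98 other iron genes that reached a mean FPKM of 1, one point per gene, in 8 groups by function, red or blue where the adjusted p in limma was under 0.05 and grey elsewhere, with the median of each group as a black line. Genes called lower lie in all 8 groups, among them 9 of 16 genes of import and uptake, where 30.5% of all tested genes were called down.

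Further genes touch the same biology. Of 3 tested mRNAs outside the 10 genes that are known to carry iron-responsive elements, 2 fell and 0 rose. Over all tested genes, 30.5% were called down and 29.1% up. EPAS1, a hypoxia-inducible factor with such an element in its 5′ UTR, fell from 15.2 ± 1.35 FPKM to 5.94 ± 0.494 FPKM, by 1.34 on the log2 scale (adjusted p = 1.7e-05 in limma), and CDC42BPA, a kinase, fell by 0.27 (adjusted p = 0.0112, but 0.091 with the trend against gene length removed).

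Among 4 tested ketone body genes, 3 rose and 1 fell, where 29.1% of all tested genes were called up and 30.5% down. ACAT1, the acetoacetyl-CoA thiolase of mitochondria, rose by 0.74 on the log2 scale (adjusted p = 2.4e-05 in limma). OXCT1, which activates acetoacetate for use, fell from 11.3 ± 0.374 FPKM to 6.09 ± 0.399 FPKM, by 0.88 (adjusted p = 2.7e-05).

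Of 13 tested ferroptosis genes, that is genes of iron-dependent lipid peroxidation and of the defence against it, 4 rose and 5 fell. That is 30.8% and 38.5%, against 29.1% called up and 30.5% called down of all tested genes. SLC7A11, the cystine importer, fell from 1.98 ± 0.0839 FPKM to 0.686 ± 0.0328 FPKM, by 1.41 on the log2 scale (standard error 0.15, adjusted p = 0.00018 in limma). GPX4, which reduces lipid peroxides, rose from 133 ± 14.8 FPKM to 185 ± 13.6 FPKM, by 0.48 (adjusted p = 0.00224). ALOX12 rose by 0.89 (adjusted p = 0.00719), from 0.832 FPKM in CTR, with 35 to 44 fragments per library, to 1.65 FPKM. The CTR mean of ALOX12 and the miR-8485 mean of SLC7A11 lie below 1 FPKM. Each of these genes thus passed the filter through its higher group alone. Without the filter, ALOX12 had an adjusted p of 0.0196 and SLC7A11 of 0.00049 in limma. SAT1 rose by 0.42 (adjusted p = 0.0105, but 0.0627 after rescaling to TPM), whereas ALOX5 fell by 0.42 (adjusted p = 0.00162) and VDAC3 by 0.31 (adjusted p = 0.00051).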

How the data were processed

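Total RNA of 6 HCT116 cultures was sequenced as 1 library each. The authors used fastp for trimming, HISAT2 2.0.5 for mapping to hg38 and featureCounts 1.5.0-p3 for counting, with versions from the submitters' processing notes. They deposited FPKM values, without scaling between libraries beyond that to library size. Whole fragments (tolerance 0.01) were recovered from 100% of the values above 0. The difference between groups was fitted with limma 3.58.1 in R 4.3.3, variance trend included, for all genes past a mean FPKM of 1 and with a pseudocount of 0.1. Tests were two-sided, and p-values were adjusted by Benjamini-Hochberg over all tested genes. The fit was tested on simulated data with 200 of 12349 genes changed, of which 171 were called (85.5%), with 3 false calls. In the real data 59.6% of tested genes were called, so the simulation does not give their error rates.

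The members and gene lists were chosen with earlier results of these data known. Beside the members, the genes named were, per group of the wider list, up to 3 rises and 3 falls of largest size among called genes whose libraries did not overlap, with BDH1, FBXL5, ferritin pseudogenes, overlapping genes and the 3 genes nearest to BDH2 in pattern. Some genes that this rule names are not reported here. UTRs came from GENCODE release 44, whose gene ends on the same build equal those of the file for 3 of the 10 genes. Alternatives were other pseudocounts, filters, scalings, trend removals, voom, a replicate block and each library left out.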

Additional observations from a re-analysis of the deposited data

How the results depend on the processing

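The calls of BDH2, FTL, FTH1, TFRC, NCOA4 and IREB2 kept their direction and their side of the threshold under every alternative that covered them. Since the genes were chosen with this contrast known, this describes the processing and is no further support for their differences. Raising the minimum mean FPKM to 5, which left 6878 genes to test, gave 2303 genes called up and 2417 called down, against 3593 and 3769, and did not cover BDH2 or SLC40A1. Rescaling to TPM gave 17 genes of the wider iron list called up, against 26, and called 35.6% of the changed genes up, against 48.8%. It also turned SLC11A2 to -0.01 and FBXL5 to -0.10, and it made the numbers of members called 3 up and 5 down. With each library left out in turn, 3124 to 3561 genes were called up and 3382 to 3663 down, 3 members up and 3 to 5 down, and 24 to 26 genes of the wider list up and 30 to 33 down. SLC40A1 ranged from -0.39 to 0.17 and FBXL5 from -0.02 to 0.05 in these fits. The 3 pairs of same-numbered libraries had correlations of 0.067, 0.033 and -0.064 between their deviations from the group means. Pairs with different numbers had -0.094 to 0.061. Pairing by replicate number was thus not seen, which does not exclude it. With the replicate number as a block, 3634 genes were called up and 3754 down, 3 members up and 3 down, with STEAP3 no longer called, and 27 genes of the wider list up and 34 down. STEAP3 was also not called without the filter or without the variance trend, and the cause was not tested. SLC40A1 had 20 to 52 fragments per library, and the part of depth in its interval was not tested.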
